A study of Mus musculus with 8 samples.

Results

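The genes of oxidative phosphorylation were followed from pachytene spermatocytes (PS), the long-lasting stage of male meiosis, to round spermatids (RS), the haploid cells that follow it. The group was defined by gene symbol: subunits and assembly factors of respiratory complexes I to V whose names begin with Nduf (a, b, c, s or v), Cox4 to Cox8, Uqcr, Atp5 or Sdh (a to d), and both cytochrome c genes, *Cycs* and *Cyct*. This definition gave 96 of the 23343 genes of the RNA-seq table, and no measured value entered it. RNA-seq had been performed on PS and RS of adult *Rnf8;Scml2*-dKO mice, which lack both the ubiquitin ligase RNF8 and the germline Polycomb protein SCML2, and H3K27ac ChIP-seq on PS and RS of adult wild-type mice, all of strain C57BL/6, with 2 replicates for each stage and assay. Every RNA sample carried the double knockout and every ChIP sample was wild type, so that assay and genotype cannot be told apart where RNA and H3K27ac are set side by side. The dKO males were infertile and had small testes, and their PS and RS were sedimented from the testes of an individual mouse; whether wild-type cells were pooled is not given in the sources used here. The study describes the replicates of both assays as biological, and the p-values measure the spread between these samples.

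Mitochondria make ATP by passing electrons from NADH through complex I, or from succinate through complex II, to complex III, from there by cytochrome c to complex IV and oxygen, while the pumped protons drive the ATP synthase, complex V. Several subunits have tissue forms encoded by separate genes. Male germ cells use their own cytochrome c, encoded by *Cyct*, and their own forms of 3 subunits of cytochrome c oxidase (complex IV): *Cox6b2*, *Cox7b2* and *Cox8c*. The forms found in most tissues are encoded by *Cycs*, *Cox6b1*, *Cox7b* and *Cox8a*. *Cox7b* lies on the X chromosome, which is silenced during pachytene, whereas *Cox7b2* is autosomal.

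The promoters of these paralogs differed in sequence. The 250 bases before the start site, taken from RefSeq on GRCm38.p6 (the mm10 build used for the files), are shown 5′ to 3′ on the strand of each gene, because they carry or lack the elements known from promoters of respiratory genes; capitals mark GCGCNTGC (bound by nuclear respiratory factor NRF1), ACTTCCGG (bound by ETS factors such as GABPA), TGACGTCA (the cyclic AMP response element, CRE) and TGACG (the core of that element, which a full CRE contains on both strands), each searched on both strands.
Cyct (chr2:76360454-76360703, minus strand): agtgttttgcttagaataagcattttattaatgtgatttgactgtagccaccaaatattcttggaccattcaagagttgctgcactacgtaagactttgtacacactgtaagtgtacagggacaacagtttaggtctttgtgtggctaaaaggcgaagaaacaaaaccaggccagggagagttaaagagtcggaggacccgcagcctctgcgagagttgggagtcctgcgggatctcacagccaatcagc
Cycs (chr6:50566570-50566819, minus strand): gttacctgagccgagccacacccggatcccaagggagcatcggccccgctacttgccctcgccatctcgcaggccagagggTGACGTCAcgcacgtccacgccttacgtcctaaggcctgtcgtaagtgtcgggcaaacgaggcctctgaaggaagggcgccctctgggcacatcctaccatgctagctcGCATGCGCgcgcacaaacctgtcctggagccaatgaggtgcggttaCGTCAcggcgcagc
Cox6b2 (chr7:4753095-4753344, minus strand): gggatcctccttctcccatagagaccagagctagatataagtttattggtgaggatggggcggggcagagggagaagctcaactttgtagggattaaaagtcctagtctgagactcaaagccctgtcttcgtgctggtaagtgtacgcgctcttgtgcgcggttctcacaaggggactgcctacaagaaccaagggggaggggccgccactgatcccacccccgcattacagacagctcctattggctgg
Cox6b1 (chr7:30626115-30626364, minus strand): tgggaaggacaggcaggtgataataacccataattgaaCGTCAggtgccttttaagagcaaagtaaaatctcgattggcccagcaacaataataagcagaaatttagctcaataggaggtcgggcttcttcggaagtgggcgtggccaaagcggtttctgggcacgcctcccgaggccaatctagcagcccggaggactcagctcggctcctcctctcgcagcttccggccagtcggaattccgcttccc
Cox7b2 (chr5:71548206-71548455, minus strand): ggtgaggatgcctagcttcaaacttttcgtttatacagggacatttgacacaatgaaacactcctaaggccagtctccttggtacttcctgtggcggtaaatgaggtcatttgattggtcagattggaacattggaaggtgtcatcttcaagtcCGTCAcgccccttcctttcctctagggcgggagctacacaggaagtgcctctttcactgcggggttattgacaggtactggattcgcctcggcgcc
Cox7b (chrX:106015450-106015699, plus strand): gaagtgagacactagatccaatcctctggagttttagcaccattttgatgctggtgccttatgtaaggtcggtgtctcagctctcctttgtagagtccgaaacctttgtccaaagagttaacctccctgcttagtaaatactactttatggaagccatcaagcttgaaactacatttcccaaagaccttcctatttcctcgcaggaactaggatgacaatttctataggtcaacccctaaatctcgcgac
The *Cycs* window held the NRF1 letters, a full CRE and a further CRE core, with 23 CpG dinucleotides and 64.0% G and C. The *Cyct* window held none of these letters, with 6 CpG and 45.6% G and C. *Cox6b2* held none and had 8 CpG, against 14 CpG and a CRE core in *Cox6b1*. *Cox7b2* held a CRE core and had 9 CpG, and X-linked *Cox7b* held none and had 5. Of the 80 members matched to a RefSeq window, 27.5% contained the NRF1 letters, 3.8% the ETS letters, 6.2% the CRE and 31.2% its core, against 8.0%, 2.9%, 1.6% and 17.9% of the windows of all 27025 genes. None of the 3 testis isoforms with a window contained the NRF1, ETS or full CRE letters. The median number of CpG was 14.5 in the members, 8.0 in the 3 testis isoforms and 6.0 in all genes. These matches describe the letters only and do not show that a factor was bound.

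RNA libraries had 9655405 to 12289694 reads on genes. Of the marker lists, all 10 round spermatid genes were higher in RS, with a summed level of 527 and 880.5 RPKM in PS and 14193 and 15041 RPKM in RS, and 8 of 10 pachytene genes were lower in RS, with 813 and 710.0 RPKM in PS and 178 and 239 RPKM in RS. All 6 Leydig cell genes, among them *Insl3* and *Cyp17a1*, were also lower in RS, and none was at 0: their sum was 729 and 547 RPKM in PS against 68.3 and 42.6 RPKM in RS. Leydig cells make steroids in the space between the tubules. Of the Sertoli cell genes, 2 of 6 tested were higher in RS and none lower, and their sum was 66.3 and 31.5 RPKM in PS and 36.8 and 21.2 RPKM in RS. For spermatogonia 3 of 7 genes were higher in RS (summed RPKM 39.6 and 26.4 in PS, 51.5 and 46.2 in RS), for peritubular cells 1 of 4 (3.04 and 2.27, against 4.19 and 3.69), and for blood 2 of 2 tested (0.382 and 0.536, against 3.99 and 3.06), while the globin genes *Hbb-b1*, *Hba-a1* and *Hba-a2* had 0 reads in every library. Of all genes tested, 30.4% were higher and 27.6% lower in RS by the same test. In bulk RNA, fewer cells of a type and less RNA per cell cannot be told apart. *Rnf8* had 93 and 110 reads in PS and 61 and 50 in RS, and *Scml2* 40 and 92 in PS and 44 and 98 in RS; as counts over whole genes they do not show the deleted parts and so do not check the genotype.

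All 4 testis isoforms fell from PS to RS, and *Cox8c*, *Cox6b2* and *Cox7b2* were among the most abundant members. *Cyct* had 138 and 109 RPKM in the 2 PS samples and 42.6 and 39.6 RPKM in the 2 RS samples. Both RS values were below both PS values. The fall was 2.91-fold (log2 fold change -1.54, SE 0.16, adjusted p = 6.09e-05; edgeR's quasi-likelihood test with Benjamini-Hochberg adjustment over 14647 genes). *Cox8c*, which encodes the germ cell form of subunit 8, had the highest mean level of all members, with 1032.5 and 929 RPKM in PS and 392 and 384 RPKM in RS. It ranked 17th of all genes by mean RPKM in PS and 107th in RS. The 2 stages did not overlap, and the fall was 2.45-fold (log2 fold change -1.30, SE 0.12, edgeR adjusted p = 2.75e-05).

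*Cox6b2*, the germ cell form of a subunit that lies where the 2 monomers of complex IV meet, had 328 and 391 RPKM in PS and 167 and 179.6 RPKM in RS. The RS samples were again the lower ones, by 2.02-fold (log2 fold change -1.02, SE 0.14, edgeR adjusted p = 0.000345). *Cox7b2* had 336 and 231 RPKM in PS, which lay further apart than those of the other testis isoforms, and 159 and 146 RPKM in RS. Its fall was 1.81-fold (log2 fold change -0.85, SE 0.18, edgeR adjusted p = 0.00282). Together the 4 genes made up 17.8% and 17.6% of the members' summed RPKM in PS and 12.2% and 13.1% in RS. In these calls the 4 genes passed the test under each of the 11 alternative settings listed with the methods, leaving out any 1 library included. No part of their RefSeq transcripts had a copy elsewhere in the genome that could have taken their reads, at 96% identity over 50 bases.

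The general paralogs were low in both stages, and none passed the test. *Cycs* had 0.803 and 0.471 RPKM in PS, from 28 and 16 reads, and 1.05 and 1.17 RPKM in RS, from 45 and 42 reads. Both RS values were above both PS values, and the log2 fold change was 0.84 (SE 0.36, edgeR adjusted p = 0.0682); it passed the test without PS replicate 1 and with a filter of 30 reads. Copies elsewhere covered 44.4% of its transcript, and since reads with several matches were dropped, its level is a lower estimate. *Cox6b1* had 27.1 and 19.1 RPKM in PS and 24.1 and 23.9 RPKM in RS, so that the stages overlapped (log2 fold change 0.10, SE 0.22). *Cox8a* had 10.9 and 8.59 RPKM in PS and 13.6 and 11.7 RPKM in RS (log2 fold change 0.42, SE 0.26, edgeR adjusted p = 0.180). *Cox7b* had 33 and 7 reads in PS and 23 in each RS sample, or 2.89 and 0.630 RPKM against 1.64 and 1.95 RPKM. The PS replicates of *Cox7b* thus enclosed the RS values, its value rested on 1 library (log2 fold change 0.07 with all samples, 1.49 and past the test without PS replicate 1, -0.60 without PS replicate 2), and copies covered 46.0% of its transcript.

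**Figure D1:**
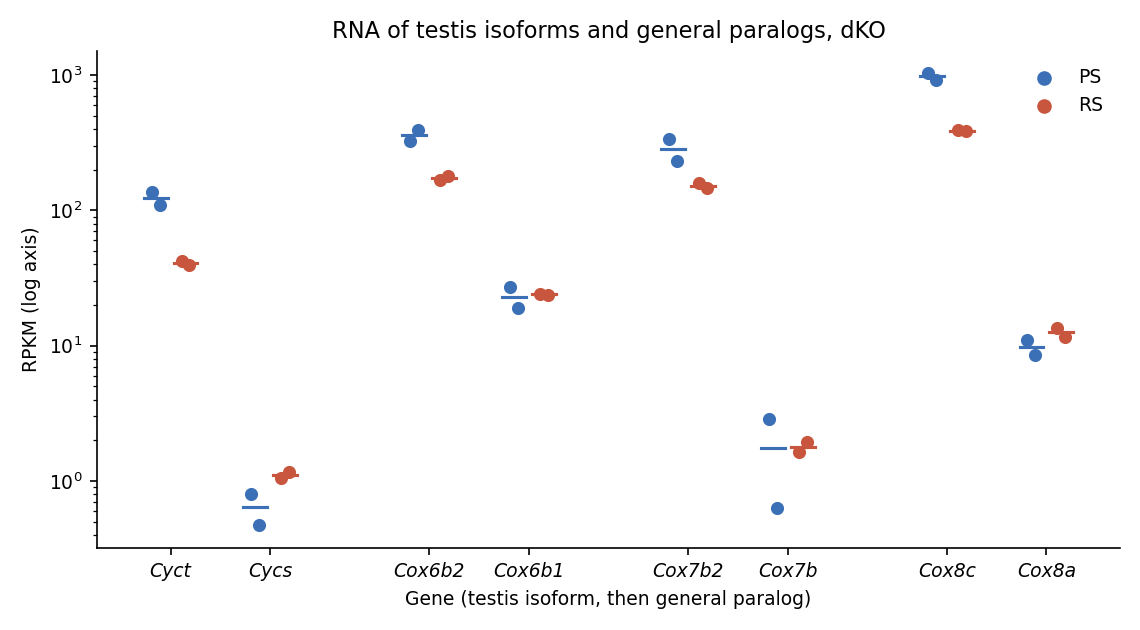
RPKM of the 4 testis isoforms and of their general paralogs in dKO PS (blue) and RS (red), on a log axis; points are single samples (2 for each stage) and lines are means. *Cox8c* goes from 1032.5 and 929 RPKM in PS to 392 and 384 RPKM in RS, while every value of its paralog *Cox8a* lies between 8.59 and 13.6 RPKM.

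Within each sample the testis isoform exceeded its general paralog in RPKM, a level per transcript length, in all 4 pairs. *Cyct* exceeded *Cycs* 171-fold and 232-fold in PS and 40.6-fold and 34.0-fold in RS. In reads, *Cyct* had 1023 and 792 against 28 and 16 in PS, and 389 and 304 against 45 and 42 in RS. Their RefSeq transcripts are 658 and 3154 bases long, so the RPKM ratio of this pair depends on the annotated length of *Cycs*. *Cox7b2* exceeded *Cox7b* 116-fold and 366-fold in PS and 96.6-fold and 74.6-fold in RS. *Cox8c* exceeded *Cox8a* 94.3-fold and 108-fold in PS and 28.7-fold and 32.9-fold in RS. The closest pair was *Cox6b2* and *Cox6b1*, with ratios of 12.1 and 20.5 in PS and 6.93 and 7.52 in RS. As a share of the pair, the testis form thus held 97.1% or more of the cytochrome c RPKM in every sample. For *Cox6b* its share was 87.4% to 95.3%. Copies elsewhere covered 44.4% of the *Cycs* and 46.0% of the *Cox7b* transcript but none of their testis forms. The ratios and shares of these 2 pairs are therefore upper estimates.

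The ratio was lower in both RS samples than in both PS samples in each of the 4 pairs. On the log2(RPKM + 0.1) scale the difference was -2.33 for *Cyct* and *Cycs*, from 7.42 ± 0.23 in PS to 5.09 ± 0.17 in RS (SD, n = 2), or 5.01-fold. It was -1.71 for *Cox8c* and *Cox8a*, from 6.64 ± 0.14 to 4.93 ± 0.14 (SD, n = 2). It was -1.23 for *Cox7b2* and *Cox7b*, from 7.56 ± 1.06 to 6.33 ± 0.25, and -1.12 for *Cox6b2* and *Cox6b1*, from 3.97 ± 0.54 to 2.85 ± 0.08 (SD, n = 2 each). The *Cox7b* pair had the widest spread: its difference was -0.48 without PS replicate 2 and -1.98 without PS replicate 1. With 2 samples against 2, the exact two-sided permutation test gave p = 0.33 for each of the 4, the smallest value this design allows, or 0.6 after adjustment over the 9 pairs compared.

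The remaining 5 pairs pit a form of muscle, lung or another tissue against the general one. *Cox4i2*, *Cox6a2*, *Cox7a1* and *Cox8b*, forms used in lung, heart, skeletal muscle or brown fat, had at most 4 reads in any library and were not tested. Their general partners were abundant: *Cox4i1* had 503 and 488 RPKM in PS and 191 and 199 RPKM in RS, *Cox6a1* 134 and 125.5 against 92.7 and 88.7 RPKM, and *Cox7a2* 237 and 236 against 185 and 188 RPKM. *Cox4i1*, a regulatory subunit and the most abundant general member of complex IV, fell 2.47-fold (log2 fold change -1.31, SE 0.12, edgeR adjusted p = 2.55e-05). *Cox6a1* (log2 fold change -0.48, adjusted p = 0.0135) did not reach 1.5-fold, and *Cox7a2* (log2 fold change -0.30, adjusted p = 0.0504) did not pass. The fifth tissue form, *Ndufa4l2*, which is induced by low oxygen in other cells, was present at 21.9 and 29.6 RPKM in PS and 29.4 and 28.7 RPKM in RS (log2 fold change 0.22, SE 0.20). Its partner *Ndufa4* had 20.3 and 10.98 RPKM in PS and 14.4 and 10.5 RPKM in RS. Both genes overlapped between stages, and *Ndufa4l2* held 51.8% to 73.2% of the pair. *Ndufa4l2* overlaps *Shmt2*, and the libraries do not mark the strand.

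Among all members, 90 of 96 passed the filter of 10 reads in 2 samples, and of these 42 fell by at least 1.5-fold at an adjusted p under 0.05 in edgeR, where 27.6% of all genes tested did, and 0 rose, where 30.4% of all genes did. Their median log2 fold change was -0.59, against 0.01 over all 14647 genes, and 83.3% of the tested members but 49.7% of all genes had a negative value. Of the members with a positive value, 3 had an unadjusted p under 0.05. Among these, *Ndufa13* and *Atp5s* also had an edgeR adjusted p under 0.05 (0.0101 and 0.0117). Both stayed just under 1.5-fold (log2 fold changes 0.58 and 0.57), and DESeq2 called *Ndufa13*. The members took 1.01% and 0.926% of all reads in PS and 0.604% and 0.565% in RS. Their summed RPKM was 10317 and 9457 in PS and 6244 and 5698 in RS. Without the testis isoforms, 38 of 86 fell and the median was -0.56. Among members with no copy elsewhere, 32 of 62 fell, and among those not overlapping another gene, 36 of 78. The Leydig cell genes fell with them, as given above, and their part in the members' fall was not tested.

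**Figure D2:**
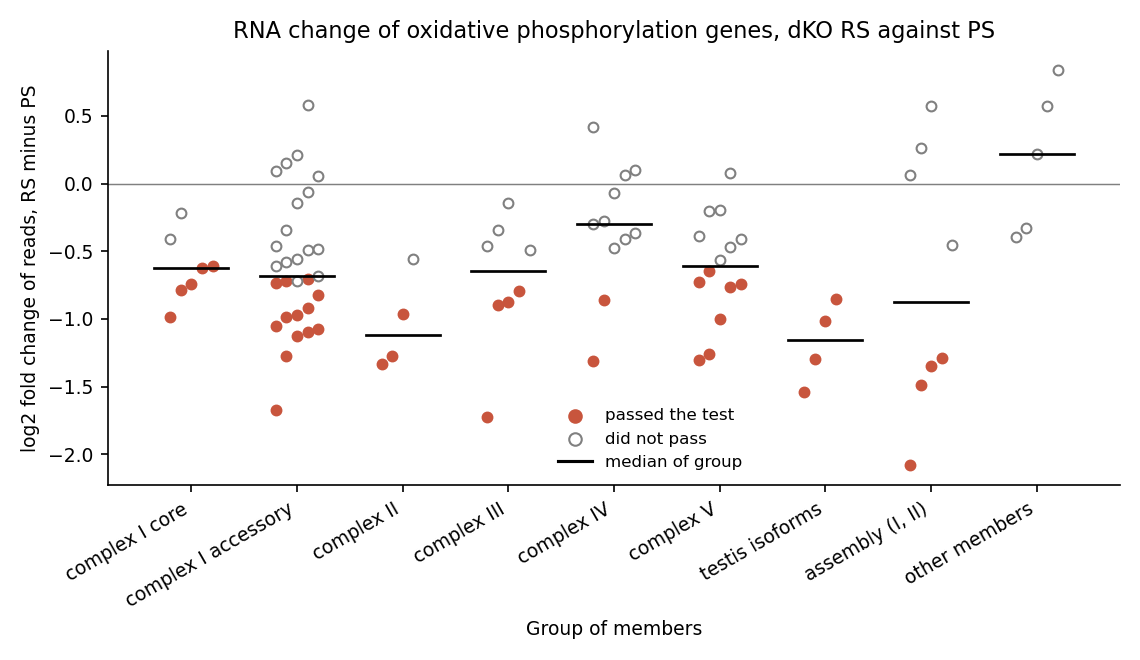
Log2 fold change of reads from dKO PS to RS for the 90 members tested, by group; filled points passed edgeR's test at 1.5-fold, open points did not, and lines are medians. No filled point lies above 0, and the 4 testis isoforms lie between -1.54 and -0.85.

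Complex I, the NADH dehydrogenase, is built from core subunits, which carry out electron transfer, and accessory subunits around them. Of the 7 nuclear core genes, 5 fell, with a median log2 fold change of -0.63. Of the 29 accessory genes 13 fell, with a median of -0.68. Over all genes tested, 27.6% fell by the same criteria, the share to set beside each complex below. The largest fall among subunits of complex I was that of *Ndufa3*, an accessory subunit, which had 114 and 107 RPKM in PS and 37.7 and 29.4 RPKM in RS. The stages were well apart, by 3.19-fold (log2 fold change -1.67, SE 0.19, edgeR adjusted p = 9.91e-05). The most abundant subunit gene, *Ndufb8*, had 189 and 160 RPKM in PS and 173 and 134 RPKM in RS, which overlapped (log2 fold change -0.14, SE 0.16). *Ndufa13*, also known for a role in cell death, was the member nearest to a rise, with 47.6 and 43.5 RPKM in PS and 73.3 and 59.0 RPKM in RS. Its log2 fold change of 0.58 (SE 0.15, edgeR adjusted p = 0.0101) lay just under 1.5-fold and passed it under 5 of 11 alternatives; it overlaps *Tssk6*, a spermatid kinase gene.

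The X-linked members did not pass the test in either direction in these dKO cells. The paper reports that many X-linked escape genes are down-regulated in dKO RS. No wild-type RNA was among these samples, so the effect of the genotype on the X-linked members was not tested. *Ndufa1*, a small accessory subunit, had 18.9 and 16.4 RPKM in PS and 18.7 and 17.9 RPKM in RS. *Ndufb11*, a membrane arm subunit, had 6.07 and 3.06 RPKM in PS and 5.57 and 4.73 RPKM in RS. Values of both stages overlapped in both genes, with log2 fold changes of 0.09 (SE 0.21) and 0.21 (SE 0.35). Together with *Cox7b* above, all 3 X-linked members had RNA in PS, at 0.630 to 18.9 RPKM. Copies elsewhere covered 64.1% of the *Ndufb11* and 18.8% of the *Ndufa1* transcript. *Ndufb11* also overlaps *Rbm10*, so that reads of the shared part cannot be told apart without strand.

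Complex II, succinate dehydrogenase, had the lowest median log2 fold change of the 5 complexes. Of its 4 subunits 3 fell, with a median of -1.12, and the summed level was 323 and 276 RPKM in PS and 151 and 150.5 RPKM in RS. *Sdhb*, the iron-sulfur subunit and the most abundant, had 94.7 and 79.5 RPKM in PS and 59.3 and 55.7 RPKM in RS, which did not overlap but stayed just under 1.5-fold (log2 fold change -0.56, SE 0.14, edgeR adjusted p = 0.00763). The assembly factors that fit its iron-sulfur clusters and the flavin of the complex fell more. *Sdhaf1* had 17.3 and 20.2 RPKM in PS and 3.99 and 4.65 RPKM in RS, a 4.23-fold fall (log2 fold change -2.08, SE 0.23, edgeR adjusted p = 8.37e-05) and the largest of all tested members. *Sdhaf2* had 11.9 and 10.6 RPKM in PS and 3.53 and 4.28 RPKM in RS (log2 fold change -1.49, SE 0.18, edgeR adjusted p = 0.000148). In both genes the stages were far apart relative to their replicates.

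In complex III, the cytochrome bc1 complex, 4 of 8 members fell, with a median of -0.64. *Uqcrc2*, a core protein of the matrix arm, had 116 and 97.0 RPKM in PS and 30.2 and 32.5 RPKM in RS, a 3.30-fold fall (log2 fold change -1.72, SE 0.14, edgeR adjusted p = 1.36e-05). The most abundant member of complex III, *Uqcrq*, had 322 and 312 RPKM in PS and 243 and 195 RPKM in RS and did not reach 1.5-fold (log2 fold change -0.49, SE 0.14, adjusted p = 0.0168). *Uqcrc2* overlaps *Pdzd9*, so that reads of the 2 genes cannot be told apart without strand. In complex IV outside the tissue forms, 2 of 11 members fell, where 27.6% of all genes tested did, and the median was -0.30. These 2 were *Cox4i1* and *Cox6c*, which was named after its values were seen.

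In complex V, the ATP synthase, 7 of 14 tested members fell, with a median of -0.61. *Atp5b*, the catalytic beta subunit, was its most abundant member with 390 and 376 RPKM in PS and 292 and 277 RPKM in RS, a difference that did not reach 1.5-fold (log2 fold change -0.39, SE 0.11, edgeR adjusted p = 0.0136). The membrane ring of the synthase is made of the c subunit, which 3 genes encode as the same mature protein with different import signals. *Atp5g3* supplied most of their RPKM, with 82.3 and 60.1 in PS and 29.7 and 27.9 in RS, and fell 2.397-fold (log2 fold change -1.26, SE 0.19, edgeR adjusted p = 0.000461). *Atp5g1* had 23.6 and 22.02 RPKM in PS and 15.6 and 14.3 RPKM in RS (log2 fold change -0.57, adjusted p = 0.0248), short of 1.5-fold. *Atp5g2* had 1.90 and 2.78 RPKM in PS and 2.43 and 2.36 RPKM in RS, with overlapping stages. Copies elsewhere covered 90.9% of the *Atp5g1* and 100% of the *Atp5g2* transcript but none of *Atp5g3*, so that the 3 levels are not equally complete. *Atp5l*, whose transcript was 92.2% copied, had 0 reads in both PS samples and 8 and 5 reads in RS, and was not tested. The *Atp5l* promoter was acetylated all the same, with an H3K27ac fold enrichment over background of 17.3 and 23.6 in PS and 27.3 and 19.7 in RS.

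Genes outside the definition that build or serve the same complexes were taken from lists by complex or role. Of all genes tested, 27.6% fell and 30.4% rose. Of 18 tested assembly factors of complex IV, 12 fell and 0 rose, with a median log2 fold change of -0.91. The largest falls were those of *Surf1*, with 11.2 and 9.85 RPKM in PS and 3.10 and 3.22 RPKM in RS (log2 fold change -1.70), and *Cox10*, which farnesylates heme, with 19.4 and 17.4 against 5.85 and 5.58 RPKM (log2 fold change -1.64). Assembly factors of complex I outside the definition went both ways: *Tmem186* (-1.98) and *Foxred1* (-1.06) fell, *Nubpl* (2.15) and *Ecsit* (1.23) rose, and in all 3 of 7 fell and 2 rose. Of 4 tested assembly factors of complex III, *Lyrm7* rose (1.98). Of 5 further complex V genes, *Usmg5* rose (1.42) and *Tmem70* fell (-1.24). *Cyc1*, the heme-bearing cytochrome c1 of complex III, fell (-0.91).

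Among 12 tested regulators of respiratory genes, 2 rose and 4 fell, where 30.4% of all genes tested rose and 27.6% fell. *Tfam*, which packages mitochondrial DNA and helps start its transcription, had 151 and 165 reads in PS and 2365 and 2100 reads in RS. Its log2 fold change was 3.67 (SE 0.15, edgeR). Both RS samples were far above both PS samples. Reads were summed over each gene, so the transcript form of *Tfam* that rose, and the protein it encodes, were not resolved. *Ppargc1b*, a coactivator, also rose (2.03), from 2 and 9 reads in PS to 27 and 24 in RS. *Yy1* (-1.56) and *Peo1*, the mitochondrial helicase (-1.07), fell, and *Nrf1* (-0.28) and *Gabpa* (-0.24) did not pass the test. Of 8 genes that supply mitochondria with pyruvate or exchange nucleotides and metabolites, the testis forms *Pdha2* (-0.98) and *Slc25a31* (-0.86) fell and 0 rose. *Pdha2* had 105 and 91.1 RPKM in PS and 52.1 and 44.8 RPKM in RS, while its X-linked general paralog *Pdha1* had 0.818 to 1.21 RPKM in the 4 samples. *Slc25a31*, the germ cell ADP/ATP carrier, had 44.4 and 36.4 RPKM in PS and 20.1 and 23.2 RPKM in RS.

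H3K27ac, the acetylation of histone H3 at lysine 27, marks active promoters and enhancers. Each wild-type sample had 41095 to 74919 deposited intervals, and 106 to 180 of them carried a member as their gene. Within 2 kb of a member's start site, 92 of 96 members had an interval in both PS samples and 92 in both RS samples, and 91 had one in all 4, where 48.8% of all genes did. *Cox4i2* and *Cox8b*, 2 of the untested tissue forms with at most 2 reads in any library, had no interval within this window in any sample. *Cox7b* had one in PS replicate 2 and RS replicate 2, with fold enrichments of 6.58 and 6.39, and *Cox6a2* and *Cox7a1* each had one in 3 samples. A start site of another gene lay within 2 kb for 35 members, so that an interval there can belong to either gene.

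The promoters of all 4 testis isoforms lost H3K27ac from PS to RS relative to other promoters. At *Cox8c* (chr12:102899306-102900534, plus strand) the fold enrichment over background of the strongest promoter interval was 49.4 and 49.9 in the PS samples and 11.4 and 6.39 in the RS samples. The RS values were several times below the PS values. After subtracting each sample's median over the genes tested, the log2 difference was -2.12 (SE 0.15, adjusted p = 1.68e-12; limma with Benjamini-Hochberg adjustment over 11394 genes). At *Cox6b2* (chr7:4751794-4753094, minus strand) it was 28.4 and 21.9 in PS and 10.6 and 5.81 in RS (log2 difference -1.25, SE 0.19, limma adjusted p = 1.39e-06). At *Cyct* (chr2:76353943-76360448, minus strand) it was 21.0 and 18.6 in PS and 8.14 and 7.55 in RS (log2 difference -0.91, SE 0.19, limma adjusted p = 0.000147). At *Cox7b2* (chr5:71442823-71548205, minus strand) it was 17.7 and 16.4 in PS and 8.54 and 6.39 in RS (log2 difference -0.79, SE 0.19, limma adjusted p = 0.00114). In none of these genes did the stages overlap, and the first 3 were called under all 10 alternatives; *Cox7b2* was not called without RS replicate 2.

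Apart from *Cox7b*, the general paralogs had a promoter interval in both replicates of each stage. *Cycs* (chr6:50562563-50566474, minus strand) had 18.9 and 20.8 in PS and 17.9 and 17.4 in RS, next to another start site 169 bases away (log2 difference 0.25, SE 0.16, limma adjusted p = 0.193). *Cycs* and *Cyct* thus had similar fold enrichments in PS, where their RPKM differed 171-fold and 232-fold. *Cox6b1* (chr7:30616974-30626151, minus strand) had 8.64 and 11.5 in PS and 11.8 and 6.97 in RS, which overlapped (log2 difference 0.28, SE 0.22). *Cox8a* (chr19:7215158-7217616, minus strand) had 27.99 and 38.9 in PS and 24.004 and 13.9 in RS and was lower in RS (log2 difference -0.43, SE 0.15, limma adjusted p = 0.0215), a call not kept without PS replicate 2, without RS replicate 2 or with absent peaks set to 0.

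**Figure D3:**
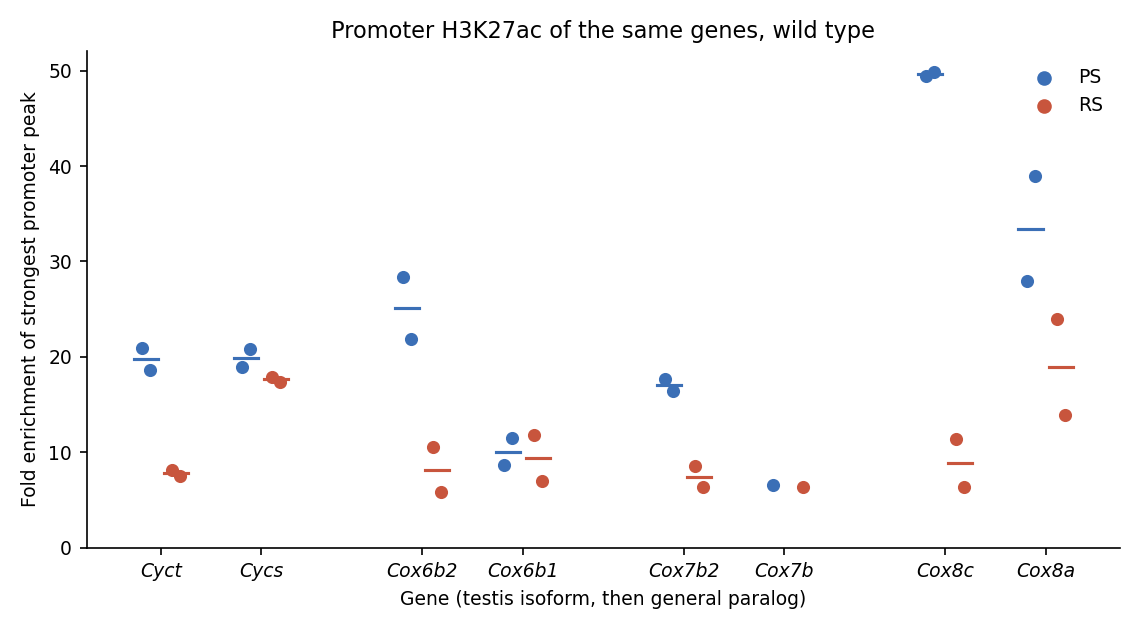
Fold enrichment over background of the strongest H3K27ac interval within 2 kb of the start site, for the same genes in wild-type PS (blue) and RS (red); points are single samples without centring, a sample without an interval has no point, and lines are means of 2 samples. The RS points of *Cox8c* (11.4 and 6.39) lie far below its PS points (49.4 and 49.9), while those of *Cycs* stay between 17.4 and 20.8.

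Over all members, 91 had an interval in all 4 samples and were tested: 24 had a lower promoter H3K27ac in RS, where 20.8% of all genes tested did, and 16 a higher one, where 22.8% did. The median log2 difference was -0.08, against 0.00442 for all genes. Outside the testis isoforms 20 of 87 were lower and 16 higher, with a median of -0.02. Complex IV had 5 lower and 1 higher of 10 tested, complex I subunits 9 lower and 7 higher of 36, and complex V 3 of each among 15. Among members with no other start site within 2 kb, 19 of 56 were lower and 7 higher. Fold enrichment was lower in RS for most genes, and without centring, which shifts the median of all genes by -0.42, 33 members were lower and 1 higher, *Ndufa5*. Directions are therefore relative to the other promoters of each sample. Without RS replicate 2, 12 members were lower and 5 higher.

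Outside the testis isoforms, the largest losses were at *Atp5o*, a stalk subunit of the ATP synthase, with 17.7 and 20.8 in PS and 7.32 and 4.64 in RS (log2 difference -1.30), and at *Ndufb7*, a complex I subunit, with 24.3 and 26.3 against 9.76 and 6.39 (log2 difference -1.26). *Ndufs6*, a zinc-binding complex I subunit, followed with 15.2 and 25.2 against 8.54 and 5.22 (log2 difference -1.13). All PS values exceeded all RS values in the 3 genes, and their limma adjusted p were 2.08e-06, 2.39e-07 and 2.97e-05. *Atp5o* and *Ndufb7* were called under all 10 alternatives, whereas *Ndufs6* was not called with absent peaks as 0 or without RS replicate 2 (limma adjusted p up to 0.096). The RNA of *Atp5o* and *Ndufs6* fell (log2 fold changes -0.65 and -0.74), and that of *Ndufb7* did not reach 1.5-fold (-0.58). *Ndufa4l2* (log2 difference -0.81) and X-linked *Ndufa1* (log2 difference -0.75) were also lower in RS, and their RNA did not pass the test. The *Ndufa1* call was lost without PS replicate 2 and without RS replicate 1 (limma adjusted p up to 0.138), and the start site of *Rnf113a1* lies 105 bases from its own.

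The largest relative gains were at *Ndufa5*, a complex I subunit, with 15.2 and 17.0 in PS and 25.6 and 24.4 in RS (log2 difference 1.06, SE 0.15, limma adjusted p = 5.68e-07), and at *Ndufs3*, a core subunit of complex I, with 15.6 and 15.9 in PS and 27.7 and 17.4 in RS (log2 difference 0.90, SE 0.15, limma adjusted p = 1e-05). RS values were above PS values in both. *Ndufa10* (log2 difference 0.87), *Uqcrfs1*, the Rieske iron-sulfur protein of complex III (0.82), and *Ndufs1* (0.73) followed. The fold enrichment of *Ndufs1* overlapped between stages before centring, with 10.7 and 17.5 in PS and 20.7 and 13.9 in RS. None of these 5 genes rose in RNA: the log2 fold changes were -0.06, -0.41, -0.46, -0.15 and -0.79, and that of *Ndufs1* was a fall. A start site of another gene lay within 2 kb of *Ndufa5* (*Asb15*), *Ndufs3* (*Kbtbd4*) and *Ndufs1* (*Eef1b2*). Of the 16 members with a gain, 0 kept the call under all 10 alternatives.

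**Figure D4:**
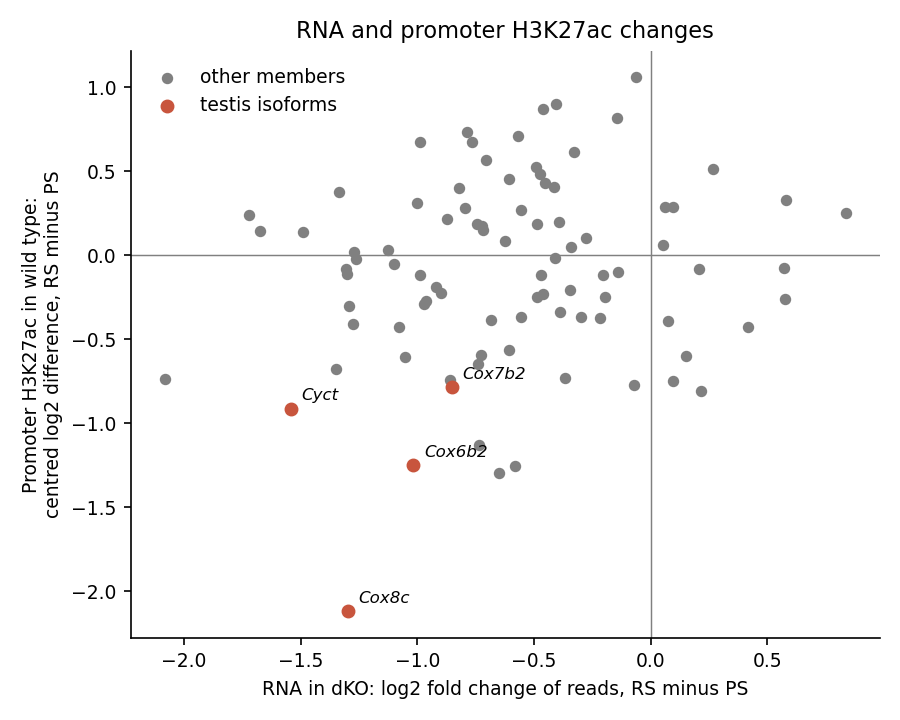
Log2 fold change of RNA in dKO (horizontal axis) against the centred log2 difference of promoter H3K27ac in wild type (vertical axis), both RS minus PS, for the 89 members tested in both assays. The 4 testis isoforms (red) lie in the lower left, with *Cox8c* at -1.30 and -2.12, and the other members (grey) spread over both signs of H3K27ac.

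Set side by side, 13 of the 89 members tested in both assays were lower in RS in both, where 9.54% of the 10773 genes tested in both were, and these included the 4 testis isoforms. Promoter H3K27ac was lower for 31% of the members whose RNA fell and for 23.4% of the other members, against 30% and 16.7% over all genes. The 31% counts all 4 testis isoforms and the 23.4% none of them, so the gap between these shares cannot be read as a trait of the remaining members. Outside the testis isoforms, promoter H3K27ac was lower for 20 of 87 tested members. Of the 42 members whose RNA fell, 24 had no called change of promoter H3K27ac and 5 had a higher one. Across the 89 members tested in both, the Pearson correlation of the 2 changes was 0.16 and Spearman's rho 0.13. Without the testis isoforms these were 0.06 and 0.04, and across all 10773 genes tested in both they were 0.54 and 0.42. These are descriptions across genes, which share libraries and are not independent replicates, and the points compare a knockout with a wild type.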

How the data were processed

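The members and gene lists were chosen with earlier results of these data known. For RNA-seq, amplified cDNA libraries that do not mark the strand, the authors aligned reads with STAR (2.4.2a in the submitters' notes) to mm10, kept unique alignments with at most 2 mismatches and split reads between RefSeq isoforms. The deposited count is the number of reads per gene as the authors counted it, and the deposited RPKM divides it by transcript length and library size. For ChIP-seq (ChIPmentation), reads were aligned with Bowtie (1.1.1 in those notes) and peaks called in each sample with MACS2 (2.1.0.20140616). The deposited lists give the pileup signal at the summit, the fold enrichment (a ratio to background) and −log10 p values. Read totals of the ChIP samples are not given in the sources used here, so their depth is unknown.

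Rows were summed to genes. Those reaching 10 counts in 2 or more samples were tested with edgeR 4.0.16 (TMM, quasi-likelihood) and called at an adjusted p under 0.05 and 1.5-fold. One read was at most 1.04e-05% of an RNA sample. The highest fold enrichment within 2 kb of a start site, on the log2 scale and minus the sample's median, was tested with limma 3.58.1 for genes with a deposited peak in all 4 samples, and called at an adjusted p under 0.05. Paralog ratios used log2(RPKM + 0.1) and scipy 1.17.1. Copies were searched with blastn 2.17.0. Python 3.11.15, pandas 2.3.3, matplotlib 3.10.9, R 4.3.3 and DESeq2 1.42.0 were also used, and the fits were tested on simulated data. Replicates were treated as unpaired.

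Named genes were all paralog pairs and the c subunit genes, X-linked members, the 5 largest called rises and falls in RNA, the most abundant member of each complex, up to 5 called H3K27ac changes and, per further list, up to 2 called changes in each direction. The RNA alternatives were DESeq2 size factors, DESeq2, 2 other count filters, limma on log2(RPKM + 1) and log2(RPKM + 0.1), the replicate block and leaving out each replicate; beside these 11, the fold criterion was dropped. For H3K27ac they were no centring, windows of 1 and 5 kb, −log10 p of at least 5, absent peaks as 0, the replicate block and leaving out each replicate.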

Additional observations from a re-analysis of the deposited data

How the results depend on the processing

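Of the 42 members whose RNA fell, 31 were called in each of the 11 alternative fits, and the number lower in RS ranged from 31 (without RS replicate 2) to 46 (without PS replicate 2) when a replicate was left out. The number higher in RS, 0 in edgeR, was 1 with DESeq2 size factors, 1 with DESeq2, 1 without the count filter, 3 with at least 30 counts in 2 samples, 2 without the fold criterion and 0 to 4 when a replicate was left out, 4 without PS replicate 1. For promoter H3K27ac, 8 of the 24 losses and 0 of the 16 gains were called in each of 10 alternatives. The gains were 1 without centring, 0 with absent peaks as 0 and 5 to 16 when a replicate was left out, and the losses were 14 with absent peaks as 0 and 12 to 23, the lowest in both cases without RS replicate 2. Over all genes, calls of higher H3K27ac made up 52.4% of calls, 19.7% without centring and 25.8% with absent peaks as 0. A window of 5 kb, which takes in other intervals, reversed the sign at *Atp5d* (0.16), *Ndufb10* (1.06) and *Ndufs8* (1.04), and *Sdhc* turned to -0.045 without centring and -0.042 with absent peaks as 0. The *Cyct* to *Cycs* difference was -1.93 on the log2(RPKM + 1) scale. Leaving out a replicate gave -2.49 to -2.16 for this pair, -1.50 to -0.75 for *Cox6b2*, -1.98 to -0.48 for *Cox7b2* and -1.81 to -1.62 for *Cox8c* over its paralog, none of which changed sign. Members with a promoter interval in both replicates numbered 58 in PS and 56 in RS where the interval had to carry both the member as its deposited gene and the deposited promoter label, in place of the 2 kb window. Replicate numbers are shared between stages, but no label ties them to an animal, and deviations of same-numbered samples correlated at 0.23 in RNA and 0.01 in H3K27ac. With the replicate block 44 members fell and 0 rose in RNA, 24 fell and 16 rose in H3K27ac, and the paralog differences stayed at -2.33, -1.12, -1.23 and -1.71. The cause of these shifts was not tested. Counts were low for *Cycs* (16 to 45 reads) and *Cox7b* (7 to 33 reads), whose calls changed with the settings named for them above, and for the untested tissue forms (at most 4 reads).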

Other observations

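Besides its promoter, *Cox7b2* was the deposited gene of an intergenic H3K27ac interval in both PS samples, at chr5:71193051-71194741 in replicate 1 and chr5:71192982-71194585 in replicate 2, with fold enrichments of 18.9 and 21.9, higher than at its promoter (17.7 and 16.4). Neither RS sample had an interval of any gene there. In RS the intergenic intervals given to *Cox7b2* lay at chr5:71172641-71173492 in replicate 1 and chr5:71172655-71173344 in replicate 2, with fold enrichments of 8.14 and 5.81, where PS replicate 2 also had one, of 5.48. These assignments are those of the deposited lists. *Cox7b2* itself spans chr5:71442823-71548205 on the minus strand, so that the intervals lie beyond its 3′ end, far from its promoter. Whether they act on *Cox7b2* was not tested, and the intervals were not tested between stages.

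*Cox6a2*, the heart and muscle form of a complex IV subunit, had an interval within 2 kb of its start site with a fold enrichment of 16.7 and 8.13 in the RS samples, 4.12 in PS replicate 1 and none in PS replicate 2, with 0 RNA reads in both PS samples and 3 and 1 reads in RS. It overlaps *Itgad*, and the H3K27ac was measured in wild type and the RNA in dKO. It was not among the genes tested.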
